A study of Mus musculus with 8 samples.

Results

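The brush border genes described here are 10 genes of the absorptive intestinal cell: Lct, Sis and Treh, which digest disaccharides, Mep1a, Mep1b, Anpep and Dpp4, which cut proteins and peptides, Alpi, a phosphatase, Vil1, a structural protein, and Cdh17, a cadherin. They were found on the array by the gene name that the scanner output gives each probe, which matched 10 probes, 1 per gene, of 39429 probes with 31791 gene names. The cells were IEC10, an immortalized mouse gut epithelial line that carries an Mx2-luciferase reporter, grown for 21 days on transwell inserts until polarized and confluent. The study asked how these cells answer a type III interferon, IFN-λ2, compared with a type I interferon, IFN-β. Arrays came from 2 samples left untreated, 3 samples given IFN-λ2 at 20 ng/mL and 3 samples given IFN-β at 500 U/mL, each for 9 h, on the same transgenic line. The labels do not say whether samples of a group were separate cultures, so the p-values measure only the spread between these samples, which may be technical.

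The brush border is the carpet of microvilli on the apical face of enterocytes. Its membrane carries hydrolases that finish digestion next to the transporters that take up the products, and its microvilli are held up by bundled actin filaments. These proteins appear as enterocytes mature, and transcription factors of the HNF4, CDX and GATA families are known to act on the promoters of several of them. Cdh17 belongs to the same cell type but is a cell adhesion protein of the lateral membrane rather than of the microvilli.

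The data show a mixed response to IFN-λ2. Lct rose, Sis rose by a call that was lost in 11 of 20 alternatives, and Mep1a fell by a call that was lost with normexp background correction. The methods' t-test at its own threshold, which is not among these 20, called none of the genes. Cdh17 was above the floor in the IFN-λ2 samples alone, and Vil1, Anpep and Dpp4 did not pass the test. None of the genes passed the test with IFN-β, except that Sis did so (log2 difference 0.88, adjusted p = 0.0431, limma) when the replicate number was a block in the fit. Mep1b and Treh were not well above background on any array, and Alpi was so on a single array.

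Promoter sequence is shown for the 3 changed genes with an entry in the RefSeq promoter table for GRCm38.p6, so that the stretch before the start of the genes that rose can be set beside that of the gene that fell. Of the 10 genes, 8 have an entry in that table. The 250 bases before each gene's start are printed 5′ to 3′ along the gene's own strand. Capitals mark letters that match a searched motif on either strand. The Lct stretch lies at chr1:128328319-128328568, that of Sis at chr3:72967864-72968113 and that of Mep1a at chr17:43502774-43503023, all on the minus strand.
Lct: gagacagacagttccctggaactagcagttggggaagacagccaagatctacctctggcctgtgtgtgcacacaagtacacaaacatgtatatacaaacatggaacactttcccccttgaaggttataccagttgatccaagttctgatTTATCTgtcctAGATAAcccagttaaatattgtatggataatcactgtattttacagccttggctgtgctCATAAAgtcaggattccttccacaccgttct
Sis: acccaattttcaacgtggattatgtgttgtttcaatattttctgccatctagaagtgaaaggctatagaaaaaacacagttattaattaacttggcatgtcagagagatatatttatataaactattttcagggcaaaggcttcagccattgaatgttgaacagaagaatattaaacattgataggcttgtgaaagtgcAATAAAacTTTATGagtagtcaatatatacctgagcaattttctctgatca
Mep1a: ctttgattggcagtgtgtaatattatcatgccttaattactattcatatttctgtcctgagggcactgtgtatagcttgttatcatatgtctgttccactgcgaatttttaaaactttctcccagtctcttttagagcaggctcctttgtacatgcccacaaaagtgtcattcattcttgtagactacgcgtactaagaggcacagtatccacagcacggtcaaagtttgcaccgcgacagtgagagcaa
The letters searched were TTTC, any 2 bases and TTTC again for the interferon-stimulated response element (ISRE), TTCNNNGAA for the gamma-activated site, TTTATG and TTTATT for CDX factors, CAAAGTCCA for HNF4 and AGATAA for GATA factors, each on both strands. With plus meaning the gene's own strand, in Lct AGATAA matched on the plus strand, starting 90 bases before the gene's start, and on the minus strand from 101 bases before it, and TTTATG matched on the minus strand from 31 bases before it. In Sis, TTTATT matched on the minus strand from 51 bases before the start and TTTATG on the plus strand from 43 bases. No searched motif was found in the Mep1a stretch, which says only that these letters are not in this window.

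The ISRE letters were not in the stretches of Lct, Sis or Mep1a, but were in 2 of the 8 member promoters, those of Alpi and Dpp4. They were found in 2.98% of all 32851 promoters of the same length. The HNF4 letters were in 2 of the 8, those of Alpi and Treh, against 0.384% of all promoters. AGATAA was in 2 of the 8 against 9.99% of all, TTTATG in 2 against 10.8%, and TTTATT in 1 against 18.1%. The gamma-activated site was in none of the 8 and in 7.02% of all. These matches describe letters and are no measure of binding.

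Levels are given in normalized gPS units, the processed signal of a probe scaled so that the 75th percentile of each array is 1500, with values under 15 set to 15, called the floor. Agilent's flag marks a probe as well above background where its signal clearly exceeds the local background. Levels of different probes were not compared with each other, and sums over marker lists, whose probes are not on a common scale, are given only as a description of each group. Of the epithelial markers, 8 of 8 were well above background on every array. Of 10 enterocyte markers outside the brush border list, 6 were at the floor on all 8 arrays: Apoa1, Apoa4, Apob, Rbp2, Reg3g and Slc5a1. All 16 probes of 15 interferon response genes rose with IFN-λ2 and with IFN-β. The 8 arrays had between 20992 and 24252 probes well above background.

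**Figure D1:**
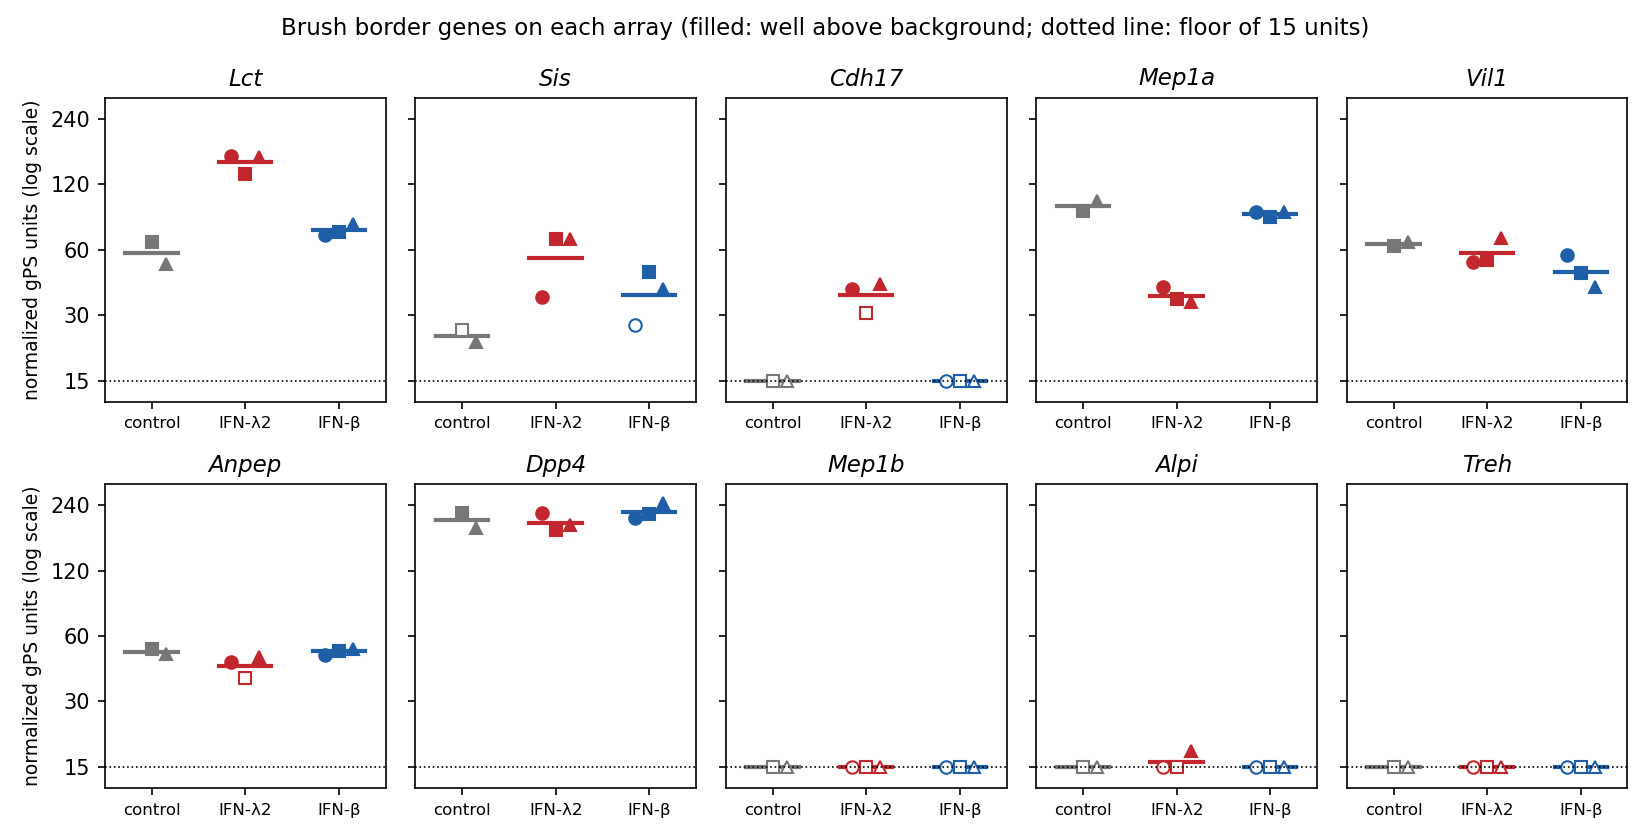
Levels of the 10 brush border genes on each of the 8 arrays, in normalized gPS units on a log scale; circles, squares and triangles are replicates 1, 2 and 3, bars are means of the log values, filled symbols are well above background and the dotted line is the floor of 15 units. Lct, Sis and Cdh17 lie higher and Mep1a lower in IFN-λ2 than in control samples, while Mep1b and Treh lie on the floor throughout.

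Of the 10 genes, 7 passed the filter on low values (above the floor on at least 2 arrays) and were tested with limma across all 26009 probes that passed. Against control samples, IFN-λ2 gave 4 genes with an adjusted p under 0.05, 3 higher and 1 lower, where 18.5% of all tested probes passed, 10.1% higher and 8.39% lower. The same 4 were at least 2-fold changed, where 3.85% of all tested probes were. The groups did not overlap for 5 of the 7, and 49.6% of all tested probes had groups that did not overlap. The median log2 difference of the 7 was -0.03 and that of all tested probes was 0.00. Cdh17 is among the 7 only because its IFN-λ2 samples were above the floor, so it had to differ and adds nothing to these counts. In these bulk samples, a change in the number of cells that express a gene and a change in RNA per cell cannot be told apart.

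Lct encodes lactase-phlorizin hydrolase, which splits milk sugar. It was well above background on all 8 arrays. Control samples read 65.4 and 51.7 units, IFN-λ2 samples 162.2, 133.7 and 160.5 units, and IFN-β samples 70.1, 72.7 and 79.0 units. Every IFN-λ2 sample was thus above every other sample, and every IFN-β sample was above both control samples by a smaller margin. Against control samples, Lct rose 2.61-fold with IFN-λ2 (log2 difference 1.38 ± 0.13 SE, 95% interval 1.06 to 1.70, adjusted p = 0.000917, limma). With IFN-β the log2 difference from control was 0.35 ± 0.13 SE, with an unadjusted p of 0.0372 and an adjusted p of 0.379. In the direct comparison, IFN-λ2 samples exceeded IFN-β samples 2.05-fold (log2 difference 1.04, 95% interval 0.75 to 1.32, adjusted p = 0.00306, limma). Within slides, each of which carried the arrays of a single replicate number, IFN-λ2 exceeded control 2.05-fold and 3.11-fold, and it exceeded IFN-β 2.31-fold, 1.84-fold and 2.03-fold. Without slide 1, which held no control array, the difference from IFN-β no longer passed the test (log2 difference 0.95, adjusted p = 0.0595, limma; range 0.00153 to 0.0595 over all alternatives).

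Sis encodes sucrase-isomaltase, which splits sucrose and starch fragments. Control samples read 25.8 and 22.5 units, IFN-λ2 samples 36.5, 67.6 and 67.4 units, and IFN-β samples 27.0, 47.5 and 39.5 units. Its signal cleared the background flag on 1 of 2 control, 3 of 3 IFN-λ2 and 2 of 3 IFN-β arrays. The IFN-λ2 samples did not overlap the control samples, but IFN-λ2 replicate 1 lay within the range of the IFN-β samples. Sis rose 2.28-fold with IFN-λ2 (log2 difference 1.19 ± 0.33 SE, 95% interval 0.40 to 1.98, adjusted p = 0.0493, limma). With IFN-β the log2 difference was 0.62 ± 0.33 SE (adjusted p = 0.534), and between IFN-λ2 and IFN-β it was 0.57 ± 0.30 SE (adjusted p = 0.284).

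The call for Sis is close to its threshold. The adjusted p went above 0.05 in 11 of 20 alternatives and ranged from 0.00341 to 0.234, while the log2 difference stayed positive in all 20. Leaving out control replicate 2 gave an adjusted p of 0.126, control replicate 3 gave 0.199, IFN-λ2 replicate 2 gave 0.119, IFN-λ2 replicate 3 gave 0.127, IFN-β replicate 2 gave 0.0512 and IFN-β replicate 3 gave 0.0785. Part of the spread ran along the slides, since both slide 1 arrays were the lowest of their groups. With the replicate number as a block, Sis passed in all 3 comparisons: IFN-λ2 against control at 1.45 (adjusted p = 0.00341), IFN-β against control at 0.88 (adjusted p = 0.0431) and IFN-λ2 against IFN-β at 0.57 (adjusted p = 0.0284). Across all probes, same-numbered arrays deviated together for IFN-λ2 and IFN-β but not with control, so the blocked values against control rest on a pairing that the data do not show. Within slides, IFN-λ2 exceeded control 2.62-fold and 2.99-fold, IFN-β exceeded control 1.84-fold and 1.76-fold, and IFN-λ2 exceeded IFN-β from 1.35-fold on slide 1 to 1.71-fold on slide 3. Sis was not well above background on control replicate 2 and IFN-β replicate 1, so the slide 2 values against control and the slide 1 value rest on a dim signal.

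Treh encodes trehalase, which splits trehalose. Its probe was at the floor on all 8 arrays and was not tested. The disaccharidases thus divide into Lct and Sis, which were measured and rose with IFN-λ2, and Treh, for which no difference was detectable on these arrays.

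Mep1a encodes the alpha subunit of meprin, a zinc metalloprotease that is released into the gut lumen or held at the membrane by the beta subunit. Mep1a was well above background on all 8 arrays. Control samples read 91.0 and 100.5 units, IFN-λ2 samples 40.5, 35.6 and 34.4 units, and IFN-β samples 89.9, 85.0 and 89.2 units. Every IFN-λ2 sample was below every sample of both other groups. The IFN-β samples also lay below both control samples, by less than the IFN-λ2 samples did. Mep1a was 2.60-fold lower with IFN-λ2 than in control samples (log2 difference -1.38 ± 0.09 SE, 95% interval -1.60 to -1.16, adjusted p = 0.000184, limma). It was 2.39-fold lower with IFN-λ2 than with IFN-β (log2 difference -1.26 ± 0.08 SE, adjusted p = 0.000443, limma), and the IFN-β difference from control was -0.12 ± 0.09 SE (adjusted p = 0.678).

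The fall in Mep1a was seen on each slide. Control exceeded IFN-λ2 2.56-fold and 2.92-fold, and IFN-β exceeded IFN-λ2 2.22-fold, 2.39-fold and 2.59-fold. With normexp background correction and an offset of 50, the log2 difference from control was -0.49 with an adjusted p of 0.0911, and that from IFN-β was -0.39 with an adjusted p of 0.145, so both calls were lost there. Over all alternatives, the adjusted p ranged up to 0.0911 against control and up to 0.145 against IFN-β. Mep1b, which encodes the beta subunit, was at the floor on all 8 arrays and was not tested.

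Anpep encodes aminopeptidase N, which removes amino acids from the start of peptides. Control samples read 52.2 and 49.5 units, IFN-λ2 samples 45.6, 38.7 and 48.0 units, and IFN-β samples 49.2, 51.5 and 52.2 units. The IFN-λ2 samples lay below all others, but by little, and the lowest of them, replicate 2, was not well above background. The log2 difference from control was -0.21 with IFN-λ2 (95% interval -0.46 to 0.03, adjusted p = 0.205, limma) and 0.00 with IFN-β (95% interval -0.24 to 0.25, adjusted p = 1, limma). With normexp correction the IFN-λ2 difference turned to 0.15 (adjusted p = 0.586; range 0.149 to 0.586 over all alternatives).

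Dpp4 encodes dipeptidyl peptidase 4, which removes dipeptides from peptides that carry proline or alanine in second place. Control samples read 221.0 and 189.3 units, IFN-λ2 samples 220.2, 184.9 and 195.4 units, and IFN-β samples 208.7, 218.3 and 244.7 units. It was well above background on all 8 arrays, and all 3 groups overlapped. The log2 difference from control was -0.03 with IFN-λ2 (95% interval -0.31 to 0.24, adjusted p = 0.867) and 0.13 with IFN-β (95% interval -0.15 to 0.41, adjusted p = 0.731, limma). These intervals exclude a 2-fold change in either direction. The peptidases thus differed among themselves, with Mep1a lower under IFN-λ2 and no difference shown for Anpep or Dpp4.

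Alpi encodes intestinal alkaline phosphatase, which removes phosphate from lipopolysaccharide and nucleotides. It was at the floor on 7 arrays and read 17.7 units on IFN-λ2 replicate 3, the only array on which it was well above background. It did not pass the filter and was not tested.

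Vil1 encodes villin, which bundles the actin filaments of the microvilli. Control samples read 62.5 and 65.5 units, IFN-λ2 samples 53.0, 53.8 and 67.9 units, and IFN-β samples 57.1, 46.7 and 40.3 units. All 8 arrays had it well above background. The IFN-λ2 samples spanned the control samples, whereas all IFN-β samples lay below them. The log2 difference from control was -0.14 with IFN-λ2 (95% interval -0.55 to 0.26, adjusted p = 0.590, limma) and -0.43 with IFN-β (95% interval -0.83 to -0.03, unadjusted p = 0.0394, adjusted p = 0.385, limma). On slides 2 and 3, control exceeded IFN-β 1.34-fold and 1.62-fold. The IFN-λ2 difference turned to 0.16 with normexp correction (adjusted p = 0.529; range 0.349 to 0.875 over all alternatives).

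Cdh17 encodes LI-cadherin, which joins neighbouring enterocytes. It was at the floor in both control samples and in all 3 IFN-β samples, and it read 39.8, 30.6 and 41.7 units in the IFN-λ2 samples. The probe was well above background on 2 of the 3 IFN-λ2 arrays and on no other array. IFN-λ2 replicate 2, on which it was not, had the highest background, with a 95th percentile of negative control features of 21.1 units, and the other arrays had 4.35 to 12.3 units. Because the other groups have only a bound, the level of Cdh17 in IFN-λ2 samples is given as at least 2.09-fold that of control samples and at least 1.77-fold that of IFN-β samples. No p-value is given, since the probe was tested only because these samples were above the floor. These bounds set the dim groups at the lowest signal that was well above background on each array. They count IFN-λ2 replicate 2 at its reading of 30.6 units, though the probe was not well above background there. A further probe, which the array names by a Cdh17 transcript and not by the gene, was not well above background on any array and showed no such difference (log2 difference 0.00, adjusted p = 0.994). The difference in Cdh17 therefore rests on a single dim probe.

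**Figure D2:**
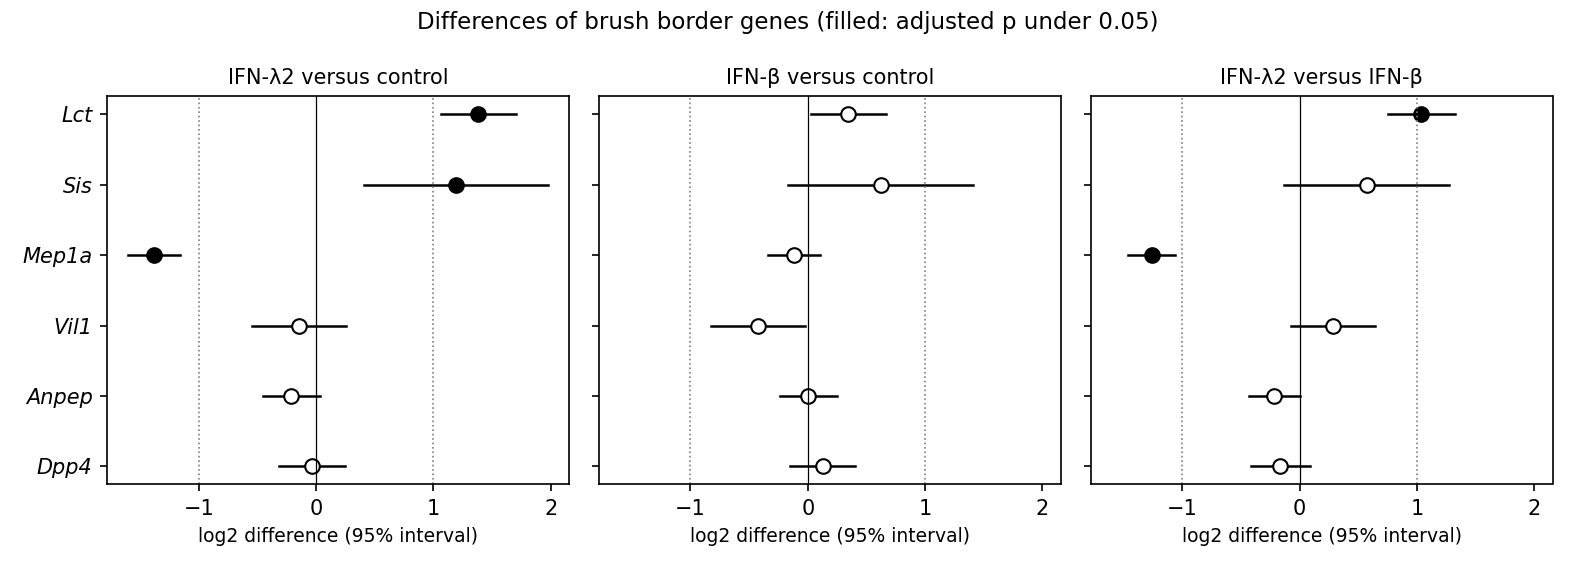
Log2 differences of the tested brush border genes other than Cdh17 in the 3 comparisons, with 95% intervals from the fit; filled points have an adjusted p under 0.05 and dotted lines mark a 2-fold difference. Lct and Sis lie above 0 and Mep1a below it for IFN-λ2 against control, and no point is filled for IFN-β against control.

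IFN-β against control gave none of the 7 genes with an adjusted p under 0.05 in limma, where 1.63% of all tested probes passed, and 2 of the 7, Lct and Vil1, had an unadjusted p under 0.05, where 12% of all tested probes did. With the replicate block the count was 1, which was Sis. The groups did not overlap for 4 of the 7, and for 26.3% of all tested probes. IFN-λ2 against IFN-β gave 3 of the 7, Lct and Cdh17 higher and Mep1a lower, where 11.2% of all tested probes passed, 5.64% higher and 5.56% lower, and the groups did not overlap for 4 of the 7, and for 32.3% of all tested probes. Both interferons were compared with the same 2 control samples, so those comparisons are not independent, and the direct comparison is the one that tests whether the interferons differ. It passed for Lct and Mep1a, and with the replicate block also for Sis (log2 difference 0.57, adjusted p = 0.0284, limma). Cdh17 is counted among the 3 but had to differ here too, since only its IFN-λ2 samples were above the floor.

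**Figure D3:**
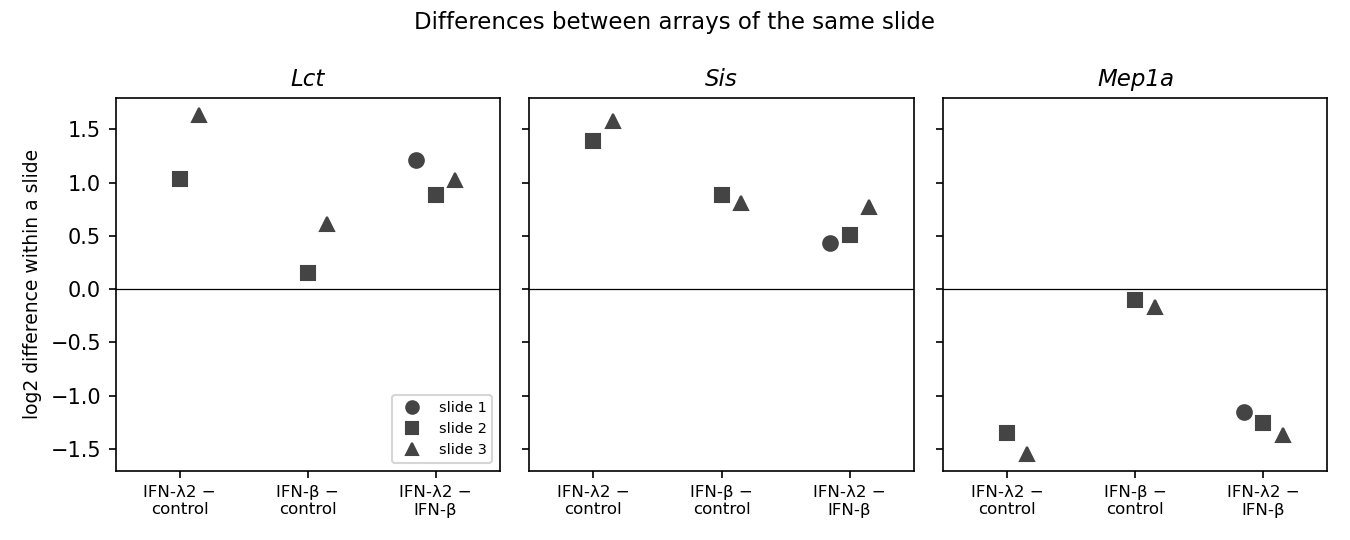
Log2 differences of Lct, Sis and Mep1a between arrays of the same slide; circles, squares and triangles are slides 1, 2 and 3, and slide 1 held no control array. Every IFN-λ2 array differs from the IFN-β array of its slide in the same direction, up for Lct and Sis and down for Mep1a.

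The probes of the changed genes lie, on mm9 as the array files give it, at chr1:130181389-130181448 for Lct, chr3:72692810-72692869 for Sis, chr17:43611284-43611343 for Mep1a and chr4:11744272-11744331 for Cdh17. Among 20267 probes well above background on all 8 arrays, those whose log2 levels ran most like Lct were Fam84b (Pearson r = 0.996), Lcor (0.995) and Gng12 (0.993). Those most like Mep1a were Rfx1 (0.992), Ndn (0.991) and Slc17a1 (0.991). These correlations run over 8 arrays of 3 groups and describe a shared order of group levels. Slc17a1, a phosphate transporter, averaged 239 units in control, 71.1 in IFN-λ2 and 204 in IFN-β samples.

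Other genes of the brush border were examined in the same way. A list of 18 further hydrolases had 11 probes of 9 genes tested, and the genes that were not well above background on any array by any probe included Akp3, Dpep1, Enpp3, Enpp7, Mgam, Naaladl1 and Xpnpep2. With IFN-λ2, 3 of the 11 probes rose and 1 fell, none by 2-fold, where 10.1% of all tested probes were higher and 8.39% lower. None passed with IFN-β, where 1.63% of all tested probes did. The genes named in the rest of this paragraph were chosen after their values were seen. Ace, a peptidase, rose 1.58-fold, and Enpep, aminopeptidase A, rose 1.34-fold. Asah2, a ceramidase, rose 1.74-fold by its brighter probe and not by the other (1.28-fold, adjusted p = 0.193, limma). Nt5e, which makes adenosine, fell by 0.45 on the log2 scale. The median log2 difference of the list was 0.35 for IFN-λ2 and 0.14 for IFN-β, beside 0.00 and 0.02 over all tested probes.

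Of 24 further genes for the structure of the microvilli, 23 were on the array and 29 probes of 21 genes were tested. With IFN-λ2, 9 of the 29 probes rose and 2 fell, where 10.1% of all tested probes were higher and 8.39% lower. None passed with IFN-β, where 1.63% of all tested probes did. Over both lists, the 15 probes that passed with IFN-λ2 became 6 with normexp correction, 9 with the replicate block, 9 without control replicate 2, 6 without control replicate 3 and 9 without IFN-λ2 replicate 1. Pls1, which encodes plastin 1, a further actin bundler of the microvilli, was the only one changed by at least 2-fold. Its level was 29.2 to 32.3 units in control, 69.6 to 78.4 units in IFN-λ2 and 24.9 to 36.4 units in IFN-β samples, so IFN-λ2 samples lay above all others. Pls1 rose 2.37-fold over control (log2 difference 1.25 ± 0.16 SE, adjusted p = 0.00287) and exceeded IFN-β samples 2.38-fold (adjusted p = 0.00286). Espn, which encodes espin, another bundler of actin in microvilli, fell by both of its probes, by 0.71 and 0.73 on the log2 scale.

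The other structure genes that rose, also chosen after their values were seen, were the myosins Myo1d (1.55-fold, with a second, dim probe at 1.07-fold), Myo5b (1.28-fold and 1.30-fold by its 2 probes) and Myo7b (1.38-fold), the actin-capping Eps8 (1.23-fold and 1.26-fold), the scaffold Pdzk1 (1.40-fold, with a second probe at 1.27-fold that did not pass) and Stx3, a syntaxin of the apical membrane. Stx3 rose 1.56-fold by 1 of 3 probes and not by the others (log2 differences -0.02 and -0.12). The median log2 difference of the list was 0.27 with IFN-λ2 and 0.00 with IFN-β.

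**Figure D4:**
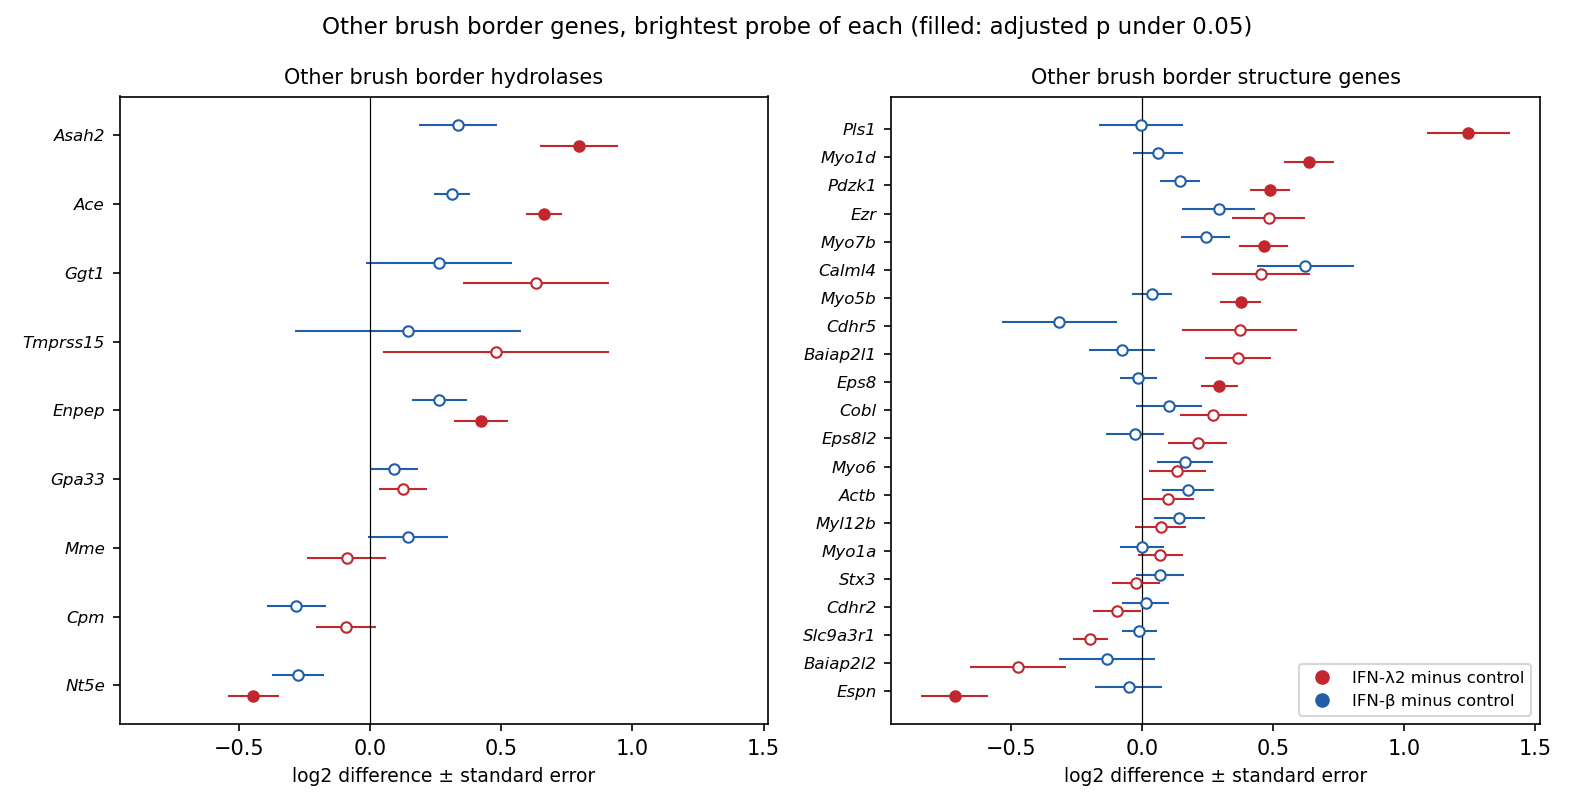
Log2 differences from control, with standard errors, of other brush border hydrolases and structure genes (brightest probe of each gene), in IFN-λ2 and IFN-β samples; filled points have an adjusted p under 0.05. Pls1 lies farthest to the right and Espn farthest to the left among the structure genes, and no IFN-β point is filled.

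Among transcription factors known for enterocyte genes, none of 12 probes tested passed with IFN-β. Hnf4a, a nuclear receptor, was 141 to 185 units in control, 23.2 to 31.0 units in IFN-λ2 and 128 to 138 units in IFN-β samples, and the IFN-λ2 samples lay below all others. It was well above background on 2 of the 3 IFN-λ2 arrays and on all 5 others, and the measured log2 difference from control was -2.61 (adjusted p = 9.8e-05, limma). Cdx2 and Hnf4g were at the floor on all 8 arrays. Their part in the levels of the brush border genes was not tested.

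Some markers of maturity and of other cell types passed the test with IFN-λ2, where 18.5% of all tested probes passed. Of 3 enterocyte marker probes tested, 2 passed, those of Krt20 and Fabp2, which rose 1.66-fold and 1.57-fold. Of 5 mesenchymal probes tested, 1 passed with IFN-λ2, that of Vim, which fell by 0.87 on the log2 scale. The summed signal of 8 mesenchymal markers was 12122 to 15279 units in control, 6835 to 8637 in IFN-λ2 and 14262 to 15923 in IFN-β samples, with Pdgfra and Pdgfrb at the floor. Of that sum, Vim alone averaged 13530 units in control and 7401 units in IFN-λ2 samples. Of 4 Paneth cell probes tested, 1 passed with IFN-λ2, that of Mmp7, which rose 12.2-fold, and the median log2 difference of the 4 was -0.07. The summed signal of 8 Paneth cell markers was 499 to 635 units in control, 4637 to 6655 in IFN-λ2 and 550 to 576 in IFN-β samples, while Defa5, Itln1 and Pla2g2a were not well above background on any array. Of that sum, Mmp7 alone averaged 435 units in control and 5289 units in IFN-λ2 samples. The goblet cell markers Muc2, Tff3 and Agr2 and the stem cell markers Lgr5 and Axin2 were not well above background on any array. None of 4 goblet cell probes or 7 immune cell probes tested passed with either interferon, 1 stem cell probe (Rnf43) and 1 tuft cell probe (Dclk1) fell with IFN-λ2, and 1 enteroendocrine probe (Sct) rose with both interferons. The part of these genes in the brush border result was not tested.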

How the data were processed

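Gene expression in IEC10 cells was measured on 8 1-color Agilent arrays. The intensity values were deposited by the authors per feature, from Feature Extraction 10.7.3.1 per the submitters' processing notes, background subtracted and before scaling between arrays; a deposited table of scaled intensities served as an alternative. The deposited flags for background and outliers, per the file headers, were used as given. The labels name Trizol for RNA isolation and the methods name RNeasy. A control replicate 1 was not analysed here.

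Control features and marked features were left out (outlier or manual flag, outside 1.42 times the interquartile range of on-chip copies, pixel CV over 0.5), a probe whose only feature was marked keeping its value. Geometric means per probe were scaled so that each array's 75th percentile was 1500, raised to 15 where lower, and converted to log2. Of 39429 probes, 26009 were above the floor on at least 2 arrays. limma 3.58.1 in R 4.3.3 fitted group means to all 8 arrays, with Benjamini-Hochberg adjustment over all tested probes. The script was tested on simulated data. The number of arrays limits the precision.

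Slides carry the replicate numbers, and each group always had the same slide position, so effects of position and of interferon cannot be told apart. Same-numbered IFN-λ2 and IFN-β samples deviated together (correlations 0.184, 0.283 and 0.316), so the numbers were taken to pair these samples. The main fit did not use this pairing. Only the alternative with the replicate block did. Same-numbered pairs with control, 2 for each interferon, had correlations of -0.051 to 0.10 and do not show pairing. No replicates held identical values, and the median absolute log2 difference between replicates was 0.09 to 0.16.

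All 10 genes were named. Of other lists, genes at least 2-fold changed were named, and exceptions are stated. Likeness was the Pearson correlation over the 8 arrays. The members and lists were chosen with earlier results of these data known. Promoters were taken from the RefSeq table for GRCm38.p6 and searched in Python 3.11.15. Alternatives were normexp with an offset of 50, quantile normalization, no floor, a floor of 50, the authors' table, no exclusion of features, no filter, a filter on probes well above background, the replicate block, leaving out each array, only the groups compared, a trended robust variance, the methods' t-test and, chosen after seeing the data, leaving out slide 1. Results for some genes of these lists are not reported here.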

Additional observations from a re-analysis of the deposited data

How the results depend on the processing

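The directions of Lct, Mep1a and Sis for IFN-λ2 against control did not turn in any alternative. Their calls held in all 20 limma alternatives for Lct, 19 of 20 for Mep1a and 9 of 20 for Sis. These 20, and the ranges given for single genes, leave out the methods' t-test. At its own threshold that test called none of these genes against control. Calls that changed are given with the results above, apart from these: a floor of 50 removed Cdh17 (all of its values lie below it) and Sis (0.29, adjusted p = 0.234), and Sis also missed with quantile normalization (1.22, adjusted p = 0.0542), no floor (0.0582), no filter (0.129) and only the groups compared (0.0722), and passed against IFN-β with normexp (0.56, adjusted p = 0.0386).

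Counts in threes are for IFN-λ2 over control, then IFN-β over control, then IFN-λ2 over IFN-β. All tested probes gave 4804, 424 and 2912 calls, and the 40 tested probes of other brush border genes gave 15, 0 and 11. For all probes the calls were 2141, 270 and 1384 with normexp, 359, 159 and 285 with the methods' t-test at its own threshold and 2-fold, 1611, 100 and 1773 with that test after Benjamini-Hochberg adjustment, 1002, 237 and 574 with a 2-fold change required, and 2611, 233 and 857 without slide 1. Only the groups compared gave 235 for IFN-β against control. For other brush border genes they were 6 and 6 (IFN-λ2 against control and against IFN-β) with normexp, 1 and 0 with the methods' t-test at its own threshold, 4 against control with that test adjusted, 1 and 1 with 2-fold required, 7 and 1 without slide 1, and 7 against IFN-β counting genes by their brightest probe; a floor of 50 gave 1 for IFN-β against control. For the 10 genes, IFN-λ2 against control gave 2 with a floor of 50, 0 with the methods' t-test at its own threshold and 1 with it adjusted.

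With the replicate block, the paired fit gave 260 calls over all probes and 1 brush border gene for IFN-β against control, and 9 other brush border probes for IFN-λ2 against control; beside the Sis calls given above it changed no other call of the 10 genes. Leaving out 1 array at a time gave 3 to 4 of the 10 genes, 2692 to 5113 probes and 6 to 16 other brush border probes for IFN-λ2 against control, and 1453 to 2727 probes and 6 to 13 other brush border probes against IFN-β.

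Reversed values, none past the threshold, were for IFN-λ2 against control Vil1 0.16, Anpep 0.15 and Dpp4 0.0055 with normexp, and Dpp4 ranged from -0.15 to 0.077 when single arrays were left out. Anpep turned against IFN-β to 0.20 with normexp, and for IFN-β against control to -0.047 with normexp and -0.052 with quantile normalization, and it ranged from -0.034 to 0.044 when single arrays were left out. The cause of these changes was not tested. Dim signal limits Sis and Cdh17, which lie near the floor, and Treh, Mep1b and Alpi, which cannot be compared. On IFN-λ2 replicate 2, Anpep was not well above background. Mep1a read 35.6 units there, close to that array's lowest signal well above background, 33.3 units.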
